A study of Homo sapiens with 6 samples.

Results

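The genes described here are 47 genes of DNA replication and of entry into S phase, chosen by name from 18597 genes measured in AGS cells, an established human gastric adenocarcinoma line. They encode proteins that license origins, build and drive the replication fork, supply nucleotides and histones, and control S phase, together with the transcription factors E2F1 and E2F2. RNA was measured in 3 libraries of cells transfected with a control small interfering RNA (siControl) and in 3 libraries of cells transfected with an RNA directed at DUB1 (siDUB1). All cells were AGS cells transfected with a small interfering RNA, and the time after transfection and the sequences of the RNAs are not given in the sources used here. The labels do not say whether replicates were separate cultures, so p-values measure only the spread between these libraries, which may be technical. Values are FPKM, fragment counts that the authors scaled for the length of the transcript and the size of the library, and the depth of each library is unknown. Values of single libraries are given in the order of replicates 1, 2 and 3, controls first.

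Before a cell can copy its DNA, the origin recognition complex, CDC6 and CDT1 load the MCM2 to MCM7 helicase ring onto origins in G1, a step called licensing. At the start of S phase the kinase of CDC7 and DBF4 acts on the loaded rings, and CDC45 and the GINS complex join them to form the active helicase, behind which polymerases, the sliding clamp PCNA and its loaders copy the strands. Transcription of many of these genes is driven by E2F factors once the retinoblastoma protein has been phosphorylated by cyclin-dependent kinases, and is therefore highest in proliferating cells around the G1/S transition.

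Because E2F factors bind DNA words of the form TTTGGCGC, TTTCGCGC, TTTCCCGC or TTTGCCGC, these 4 words were searched on both strands of the RefSeq promoter windows (GRCh38.p14), from 250 bases before to 50 bases after each start. A window was given for 43 of the 47 genes, and those of MCM4, MCM5, GINS4 and DSCC1 were not analysed here. At least 1 word stood in a window of 27 of the 43 genes (62.8%), against 633 of 9064 tested genes with a window (6.98%). A match describes the letters and is no evidence of binding, and words on opposite strands can overlap. Stretches of 190 bases, 180 before the start and 10 from it, are shown for MCM3, CDC25A, CLSPN and RRM2, whose transcripts fell, and for MCM6 and E2F1, whose transcripts did not pass the test with all libraries. They are written 5′ to 3′ on the strand of the gene, with the E2F words in capitals.
MCM3 (chr6:52284733-52284922, minus strand): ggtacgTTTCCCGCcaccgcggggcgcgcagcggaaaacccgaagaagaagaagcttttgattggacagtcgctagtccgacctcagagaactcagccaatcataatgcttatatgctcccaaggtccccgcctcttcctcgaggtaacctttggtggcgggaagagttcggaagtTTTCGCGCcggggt
CDC25A (chr3:48188408-48188597, minus strand): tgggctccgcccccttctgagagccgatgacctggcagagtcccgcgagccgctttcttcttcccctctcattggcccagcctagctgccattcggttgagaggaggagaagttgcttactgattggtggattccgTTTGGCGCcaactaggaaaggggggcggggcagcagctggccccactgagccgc
CLSPN (chr1:35769969-35770158, minus strand): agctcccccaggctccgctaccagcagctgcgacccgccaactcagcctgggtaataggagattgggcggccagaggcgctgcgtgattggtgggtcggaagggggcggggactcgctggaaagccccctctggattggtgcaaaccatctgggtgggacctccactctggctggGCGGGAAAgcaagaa
RRM2 (chr2:10122388-10122577, plus strand): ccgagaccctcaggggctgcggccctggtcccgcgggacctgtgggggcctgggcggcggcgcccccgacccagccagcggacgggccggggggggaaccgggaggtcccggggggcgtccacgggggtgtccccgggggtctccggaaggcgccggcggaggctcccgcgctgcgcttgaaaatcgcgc
MCM6 (chr2:135876434-135876623, minus strand): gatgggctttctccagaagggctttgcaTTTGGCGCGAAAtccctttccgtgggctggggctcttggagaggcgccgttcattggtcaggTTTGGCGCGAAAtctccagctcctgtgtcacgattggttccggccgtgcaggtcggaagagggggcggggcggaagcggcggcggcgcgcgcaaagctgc
E2F1 (chr20:33686376-33686565, minus strand): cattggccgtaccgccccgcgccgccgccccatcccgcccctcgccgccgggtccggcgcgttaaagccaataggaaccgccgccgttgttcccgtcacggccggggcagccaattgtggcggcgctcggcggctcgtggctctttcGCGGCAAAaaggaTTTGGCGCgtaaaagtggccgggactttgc
The MCM6 stretch held the run TTTGGCGCGAAA at 2 places, each made of a TTTGGCGC and an overlapping TTTCGCGC on the other strand. The RRM2 windows held none of the words. Of the 24 genes with a window that were lower when siDUB1 replicate 3 was left out, 17 held a word. Of the other 19, 10 held a word.

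The targeted transcript and the libraries were examined first. USP36, for which DUB1 is a synonym in the RefSeq gene table and which is taken here as the target on that basis alone, stood at 9.16, 6.74 and 7.25 FPKM in the controls and at 4.11, 4.75 and 2.59 FPKM in the siDUB1 libraries (log2 change -0.87, limma adjusted p = 0.0432, with 0.000197 to 0.179 over the alternatives). The epithelial markers KRT8 and EPCAM were high, with control means of 3691 and 259.9 FPKM, and none of the 7 epithelial markers passed the test with all 6 libraries, while 4 were lower after quantile normalization. Their summed level was 7504, 7874 and 7411 FPKM in the controls and 6357, 6246 and 8790 FPKM in the siDUB1 libraries. Of 4 leukocyte markers, PTPRC and CD3E were at or near 0, at most 0.37 FPKM in any library, and CD68 and LYZ rose (limma adjusted p = 0.0043 and 0.0119), so that the summed level of the list was 194 FPKM in each control and 648, 650 and 382 FPKM in the siDUB1 libraries. Of 6 stromal and endothelial markers, COL1A1 fell from 19.1 to 9.60 FPKM (limma adjusted p = 0.0101), and COL1A2, PDGFRB, DCN, PECAM1 and VWF were at most 0.16 FPKM. The calls of CD68, LYZ and COL1A1 were also made without siDUB1 replicate 3. siDUB1 replicate 3 stood apart from the other libraries. Across the 10994 genes tested its correlation was r = 0.964 with siDUB1 replicate 1 and r = 0.96 with replicate 2, against 0.997 to 0.998 for the other pairs within a group, and its median FPKM was 1.75 against 2.91 to 3.07. The counts of genes that passed are therefore given with and without it.

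With all 6 libraries, 6 of the 47 genes fell, none rose and 41 did not pass the test (limma on log2(FPKM + 1), adjusted over 10994 genes with a threshold of 0.05). The genes that fell were CLSPN, CDC25A, RRM2, ORC6, MCM3 and MCM4. Over all genes tested 5.92% were lower and 8.13% higher, so that the share of lower genes among the 47 (12.8%) was above the background and that of higher genes below it. An unadjusted p under 0.05 was reached by 18 of the 47, among them POLD1, which was higher. The share of all genes at that level was not counted, so this number has no background. The median log2 change was -0.35, against -0.06 for all genes. These calls depended on single libraries. None of the 47 was called without siControl replicate 1, 2 or 3 or without siDUB1 replicate 1, where 0.646%, 0.728%, 0.7% and 2.16% of all genes were lower. Without siDUB1 replicate 2, 3 were lower (CLSPN, RRM2 and ORC6), against 3.63% of all genes, and without siDUB1 replicate 3 the number called was 28. With all libraries, 14 were lower after quantile normalization (10.8% of all genes) and 3 when no filter on low values was set (3.37% of all genes), where ORC6, MCM4 and RRM2 did not pass (limma adjusted p = 0.0557, 0.0548 and 0.0503). In bulk RNA, fewer cells in S phase and less transcript per cell cannot be told apart.

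Without siDUB1 replicate 3, 26 of the 47 genes were lower (55.3%) and 2 were higher, MCM6 and POLD1, while 19 did not pass. In that fit 25.6% of all genes were lower and 31.7% higher. All 6 genes that fell with 6 libraries were among the 26. The median log2 change of the 47 was -0.21 and that of all genes 0.02. In the same fit 5 of the 7 epithelial markers were lower and 1 was higher, with a median of -0.26, and their part in the result was not tested. All 3 siDUB1 values were below all 3 control values for 31 of the 47 genes and above them for 2, GINS2 and POLD1. Over all genes these shares were 28.5% and 24.8%. The summed FPKM of the 47 genes was 1639, 1637 and 1662 in the controls and 1379, 1397 and 1043 in the siDUB1 libraries. The 3 control sums were close together, the first 2 siDUB1 sums were lower and close to each other, and the sum in siDUB1 replicate 3 was lower again. The libraries differed in the summed FPKM of all genes. It was 545694, 573574 and 564635 in the controls and 590214, 583243 and 694878 in the siDUB1 libraries. PCNA and TYMS, the most abundant of the 47, weigh most in the sums of the 47.

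**Figure D1:**
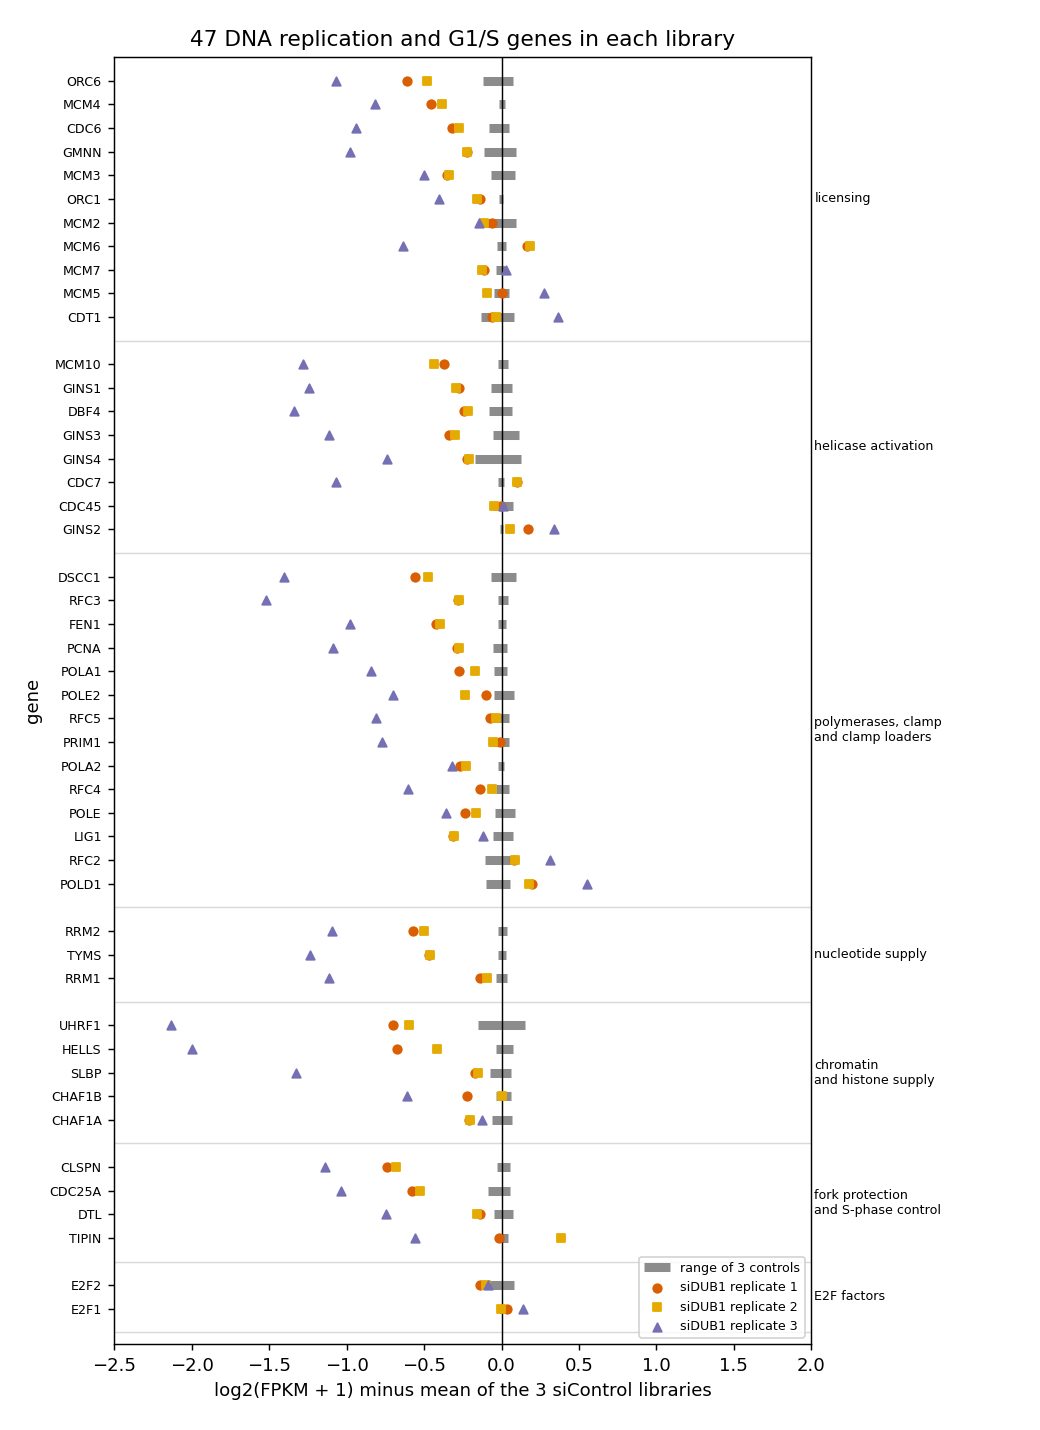
Each gene's log2(FPKM + 1) in the 3 siDUB1 libraries, minus the mean of the 3 siControl libraries (x axis), by role (y axis). Grey bars span the 3 controls. For most genes siDUB1 replicates 1 and 2 lay together just left of the bar and replicate 3 (triangles) farther left, and the 3 libraries lay below every control for 31 of the 47 genes.

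The difference between siDUB1 replicate 3 and the other siDUB1 libraries rose with the GC content of the transcripts. That library was below both others for 36 of the 47 genes and above both for 11, while 60.6% of all genes were below both. Over the 47 genes GC content and this difference were correlated at r = 0.75 (Spearman rho = 0.73), which is a description of genes measured in the same libraries. For the 16 genes with a GC content below 45% the median difference was -0.78 on the log2 scale, against -0.79 for all genes in that range. For the 20 genes between 45% and 55% it was -0.51, against -0.31, and for the 11 genes above 55% it was 0.13, against 0.26. The log2 change without that library showed little such relation (r = 0.22, rho = 0.21), with medians of -0.22, -0.26 and -0.12 in the 3 ranges of GC content where all genes had -0.07, 0.04 and 0.10. UHRF1, with a GC content of 58.1%, was the member farthest from its range, at -1.49. After each library was corrected for GC content and length, 17 of the 47 genes were lower and 1 was higher with all 6 libraries, where 14.9% and 17.0% of all genes were lower and higher. When siDUB1 replicate 3 was also left out, 29 were lower and 2 higher, against 28.1% and 30.3% of all genes. Below, a gene is said to pass in the fit without this correction unless another is named.

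**Figure D2:**
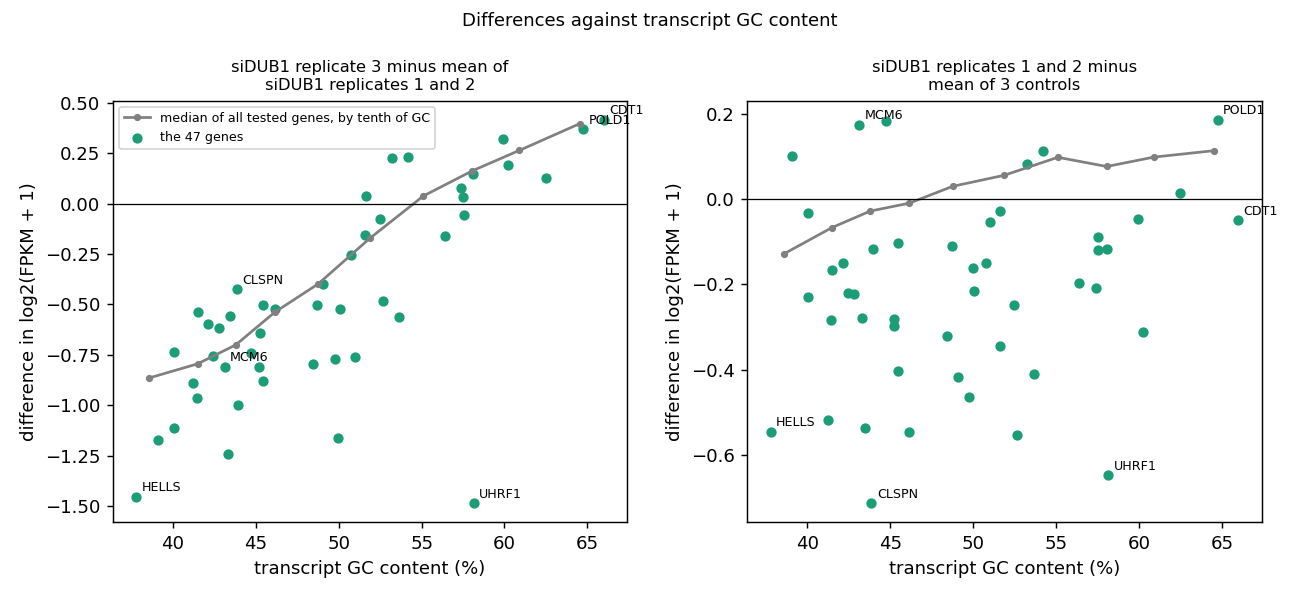
Transcript GC content (x axis, %) against the difference in log2(FPKM + 1) for the 47 genes (points) and the median of all tested genes in bins of GC content (grey line). On the left, siDUB1 replicate 3 minus the mean of siDUB1 replicates 1 and 2 rose with GC content. On the right, siDUB1 replicates 1 and 2 minus the controls lay below the grey line for most of the 47 genes.

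Among the 11 licensing genes, ORC6, MCM3 and MCM4 fell, none rose and 8 did not pass. Over all genes 5.92% were lower and 8.13% higher with all libraries. Without siDUB1 replicate 3 the counts were 6 lower and 1 higher, where 25.6% of all genes were lower and 31.7% higher. ORC6, the smallest subunit of the origin recognition complex (NCBI Gene 23594, GRCh38 chromosome 16, 46689659 to 46698394), stood at 21.0, 23.6 and 24.1 FPKM in the controls and at 14.6, 16.1 and 10.4 FPKM in the siDUB1 libraries. The groups did not overlap, and the lowest value was that of siDUB1 replicate 3. Its mean went from 22.9 ± 1.67 down to 13.7 ± 2.96 FPKM (± SD, n = 3 each, log2 change -0.72, SE 0.17, limma adjusted p = 0.0407). ORC1, the origin-binding ATPase subunit, had mean levels of 8.64 ± 0.099 (controls) and 7.23 ± 0.822 FPKM (siDUB1) and did not pass (limma adjusted p = 0.224).

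None of the loading factors CDC6 and CDT1 and the inhibitor geminin passed with all libraries. After the GC and length correction of all libraries CDC6 and geminin were lower (limma adjusted p = 0.0104 and 0.0456). There 14.9% of all genes were lower and 17.0% higher. CDC6, the ATPase that brings the helicase to the origin, stood at 31.7, 28.9 and 31.3 FPKM in the controls and at 24.3, 25.1 and 15.5 FPKM in the siDUB1 libraries. Its groups did not overlap, but it did not pass with all libraries (log2 change -0.51, SE 0.19, limma adjusted p = 0.117), and was lower without siDUB1 replicate 3 (-0.30, limma adjusted p = 0.000781). CDT1, its partner in loading, stood at 47.6, 46.8 and 41.0 FPKM in the controls and at 43.0, 44.0 and 58.4 FPKM in the siDUB1 libraries. The groups overlapped and siDUB1 replicate 3 was the highest of all 6 libraries (log2 change 0.09, limma adjusted p = 0.665). The CDT1 transcript had the highest GC content of the 47 (66.0%), and after the GC and length correction without siDUB1 replicate 3 its change was -0.15 (limma adjusted p = 0.032). GMNN, which encodes geminin, the inhibitor of CDT1, stood at 37.7, 43.7 and 41.7 FPKM in the controls and at 35.0, 35.0 and 20.3 FPKM in the siDUB1 libraries. All siDUB1 values were below all controls, by a small margin in replicates 1 and 2, and the change passed when siDUB1 replicate 3 was left out (log2 change -0.47, limma adjusted p = 0.18 with all libraries, and -0.22, adjusted p = 0.00908 without replicate 3).

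Of the 6 subunits of the MCM ring, which are present once each in the complex, MCM3 and MCM4 fell and the others did not pass. The shares of all genes were 5.92% lower and 8.13% higher. MCM3 (NCBI Gene 4172, chromosome 6, 52264015 to 52284742) stood at 42.0, 40.4 and 45.1 FPKM in the controls and at 33.1, 33.4 and 29.7 FPKM in the siDUB1 libraries, so its groups lay well apart. The mean fell by 24.5% (log2 change -0.40, SE 0.09, limma adjusted p = 0.0388). MCM3 lost its call with size factors (adjusted p = 0.0752), with eBayes without a trend (adjusted p = 0.0517) and with the GC and length correction (adjusted p = 0.0531). MCM4 (NCBI Gene 4173, chromosome 8, 47960941 to 47978160) stood at 37.9, 36.9 and 37.3 FPKM in the controls and at 27.0, 28.5 and 20.8 FPKM in the siDUB1 libraries, again without overlap. Its mean fell by 32.0% (log2 change -0.55, SE 0.13, limma adjusted p = 0.0411).

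For the other 4 subunits the groups overlapped. MCM2 stood at 31.9, 27.9 and 30.0 FPKM in the controls and at 28.6, 27.6 and 27.0 FPKM in the siDUB1 libraries (log2 change -0.11, limma adjusted p = 0.423). MCM5 stood at 34.2, 33.2 and 31.9 FPKM in the controls and at 33.2, 30.9 and 40.2 FPKM in the siDUB1 libraries (log2 change 0.06, limma adjusted p = 0.728). MCM7 stood at 87.1, 89.9 and 90.7 FPKM in the controls and at 82.5, 81.8 and 90.9 FPKM in the siDUB1 libraries (log2 change -0.07, limma adjusted p = 0.551). MCM5 and MCM7, with GC contents of 59.9% and 58.1%, were thus highest in siDUB1 replicate 3 among all libraries. The span of MCM7 overlaps that of AP4M1, and reads of overlapping genes cannot be told apart where the use of strand is not given.

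MCM6 was the subunit in which siDUB1 replicates 1 and 2 were above every control. It stood at 18.5, 17.7 and 18.1 FPKM in the controls and at 20.4, 20.8 and 11.3 FPKM in the siDUB1 libraries. The first 2 siDUB1 libraries were higher than the controls and siDUB1 replicate 3 was lower than all of them. With all libraries MCM6 did not pass (log2 change -0.09, SE 0.23, limma adjusted p = 0.786), and without siDUB1 replicate 3 it was higher (0.18, SE 0.06, limma adjusted p = 0.0174). The MCM6 transcript is GC-poor (43.1%), and after the GC and length correction it was higher both with all libraries (0.31, limma adjusted p = 0.0123) and without siDUB1 replicate 3 (0.28, limma adjusted p = 0.000617). The correction without that library placed MCM2, MCM3, MCM4, MCM5 and MCM7 lower, with changes from -0.40 for MCM4 to -0.15 for MCM7 and MCM5. In that fit 28.1% of all genes were lower and 30.3% higher. Per length, control levels of the subunits ran from 18.1 ± 0.4 FPKM for MCM6 to 89.2 ± 1.87 FPKM for MCM7, a ratio of 4.92, with MCM2, MCM5, MCM4 and MCM3 between 29.95 and 42.5 FPKM. The summed FPKM of the 6 subunits was 252, 246 and 253 in the controls and 225, 223 and 220 in the siDUB1 libraries.

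**Figure D3:**
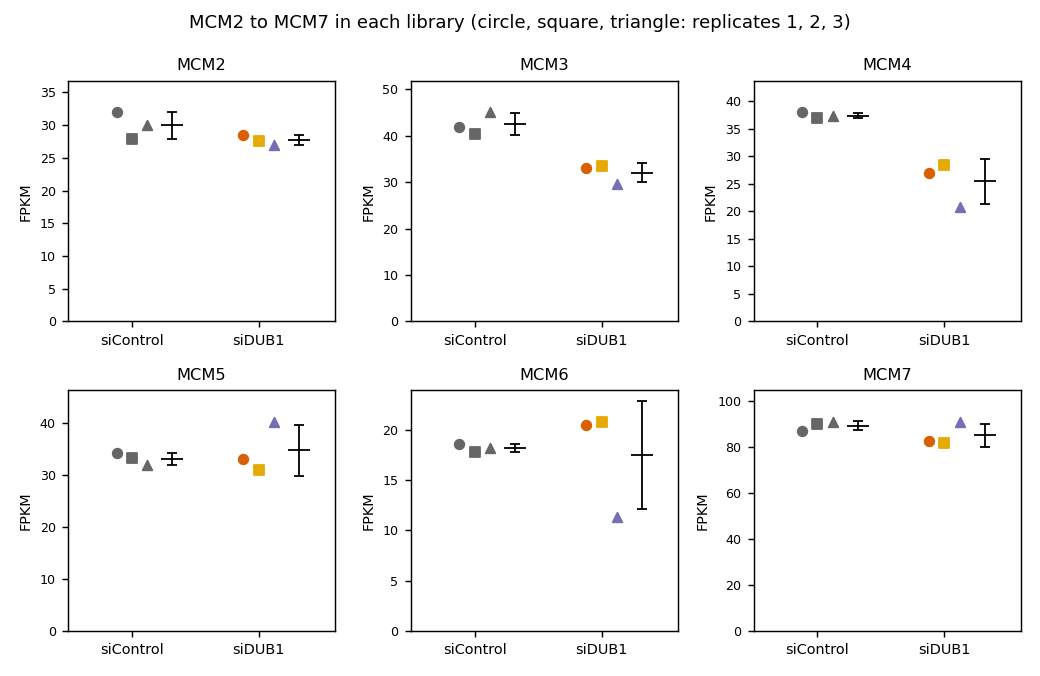
FPKM (y axis) of MCM2 to MCM7 in each library by group (x axis), with the mean and SD of 3 libraries beside the points. MCM3 and MCM4 were lower in every siDUB1 library, MCM2, MCM5 and MCM7 overlapped, and in MCM6 siDUB1 replicates 1 and 2 were above and replicate 3 below all controls.

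None of the 8 genes of helicase activation passed with all libraries, and without siDUB1 replicate 3 MCM10, GINS1, GINS3 and DBF4 were lower and none was higher. In that fit 25.6% of all genes were lower and 31.7% higher. Once all 6 libraries were corrected for GC content and length, MCM10 and GINS3 were lower (limma adjusted p = 0.0142 and 0.0273). There the shares of all genes were 14.9% lower and 17.0% higher. MCM10, which helps convert the loaded ring into a moving helicase, had mean levels of 9.57 ± 0.266 (controls) and 5.77 ± 2.12 FPKM (siDUB1) (log2 change -0.70, limma adjusted p = 0.113, and -0.40, adjusted p = 0.000296 without siDUB1 replicate 3). None of the 4 GINS subunits passed with all libraries. GINS1, GINS3 and GINS4 averaged 19.4, 10.4 and 5.91 FPKM in siControl and 13.0, 6.85 and 4.33 FPKM in siDUB1, with every siDUB1 library below every control. Over all genes the shares below and above every control were 28.5% and 24.8%. GINS4 did not pass without siDUB1 replicate 3 either (limma adjusted p = 0.0612). GINS2 stood at 10.2, 10.4 and 10.4 FPKM in the controls and at 11.8, 10.8 and 13.4 FPKM in the siDUB1 libraries, so that its siDUB1 values were all above the controls, without passing the test (log2 change 0.19, limma adjusted p = 0.287). The span of GINS2 overlaps that of GSE1. CDC45, the remaining part of the active helicase, averaged 18.4 ± 0.907 and 18.2 ± 0.414 FPKM (log2 change -0.02, limma adjusted p = 0.918). The kinase gene CDC7 stood at 6.71, 6.86 and 6.93 FPKM in the controls and at 7.40, 7.40 and 2.73 FPKM in the siDUB1 libraries, and its activating subunit DBF4 at 11.6, 10.3 and 11.03 FPKM and at 9.11, 9.30 and 3.72 FPKM. siDUB1 replicate 3 was far below the other libraries for both, and both transcripts are GC-poor (39.1% and 40.1%). Once GC and length were corrected and that library was left out, CDC7 was higher (0.24, limma adjusted p = 0.00758) and DBF4 did not pass (-0.08, limma adjusted p = 0.206).

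None of the 14 genes of polymerases, clamp and clamp loaders passed with all libraries before correction. Corrected for GC content and length with all libraries, PCNA, FEN1, LIG1, POLA2 and DSCC1 were lower (limma adjusted p = 0.0214, 0.0171, 0.0173, 0.00661 and 0.00527). There 14.9% of all genes were lower and 17.0% higher. Without siDUB1 replicate 3 and uncorrected, 8 of the 14 were lower and 1 higher, beside 25.6% lower and 31.7% higher among all genes. PCNA, the sliding clamp (NCBI Gene 5111, chromosome 20, 5114953 to 5126622), was the most abundant of the 47 per length. It stood at 311, 327 and 332 FPKM in the controls and at 265, 267 and 151 FPKM in the siDUB1 libraries. All siDUB1 libraries were below all controls, and replicate 3 was far below the other two. The change did not pass with all libraries (log2 change -0.55, SE 0.23, limma adjusted p = 0.145) and did without siDUB1 replicate 3 (-0.28, SE 0.05, limma adjusted p = 0.000462). RefSeq names 4 PCNA pseudogenes, so some reads may have been assigned elsewhere. FEN1, the nuclease that trims Okazaki fragments, averaged 48.8 ± 0.941 and 32.4 ± 7.03 FPKM (log2 change -0.60, limma adjusted p = 0.0613), and LIG1, the ligase that seals them, 48.6 ± 2.34 and 40.8 ± 3.25 FPKM (-0.25, limma adjusted p = 0.124). Both were lower without siDUB1 replicate 3, by changes of -0.41 and -0.31 (limma adjusted p = 2.07e-05 and 0.000366).

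POLD1, the catalytic subunit of the lagging-strand polymerase delta, was the polymerase gene with higher values. It stood at 41.8, 41.4 and 37.4 FPKM in the controls and at 46.1, 45.6 and 59.4 FPKM in the siDUB1 libraries. All siDUB1 values were above all controls and that of replicate 3 was the highest. It did not pass with all libraries (log2 change 0.31, SE 0.13, limma adjusted p = 0.147), was higher without siDUB1 replicate 3 (0.19, limma adjusted p = 0.0146), and did not pass once GC content, 64.7% for this transcript, and length were corrected in that fit (0.06, limma adjusted p = 0.322). POLE, of the leading-strand polymerase, averaged 14.3 and 11.9 FPKM, and POLA2, of the primase complex, 24.8 and 20.4 FPKM, and both were lower without siDUB1 replicate 3 (limma adjusted p = 0.0221 and 0.0017). Of the clamp loader subunits, RFC3 had mean levels of 24.0 ± 0.597 (controls) and 15.6 ± 6.87 FPKM (siDUB1), and RFC2 39.9 ± 2.76 and 44.7 ± 4.25 FPKM, neither passing with all libraries. DSCC1, of an alternative clamp loader, averaged 7.80 and 4.20 FPKM (log2 change -0.81, limma adjusted p = 0.0834), and was lower without siDUB1 replicate 3 (-0.52, limma adjusted p = 0.000115).

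RRM2 was the gene of nucleotide supply that passed with all libraries. It encodes the small, S-phase subunit of ribonucleotide reductase, which makes deoxyribonucleotides (NCBI Gene 6241, chromosome 2, 10122568 to 10211010). It stood at 91.2, 87.6 and 88.6 FPKM in the controls and at 59.6, 62.8 and 41.3 FPKM in the siDUB1 libraries, with a wide gap between the groups. The mean fell by 38.8% (log2 change -0.72, SE 0.16, limma adjusted p = 0.0354). RefSeq names 3 RRM2 pseudogenes, so the assignment of reads is uncertain. The large subunit gene RRM1 stood at 50.01, 48.8 and 51.3 FPKM in the controls and at 45.2, 46.8 and 22.5 FPKM in the siDUB1 libraries. It was below the controls by a small margin in siDUB1 replicates 1 and 2 and did not pass with or without replicate 3 (log2 change -0.45, limma adjusted p = 0.277, and -0.12, adjusted p = 0.0601). TYMS, thymidylate synthase, stood at 163, 166 and 169 FPKM in the controls and at 120, 120 and 69.9 FPKM in the siDUB1 libraries. Its groups lay well apart, replicate 3 was far below the other two, and it did not pass (log2 change -0.72, SE 0.21, limma adjusted p = 0.0718). It was lower without that library (-0.46, SE 0.05, limma adjusted p = 4.57e-06) and also with all libraries after size factors, quantile normalization or the GC and length correction (limma adjusted p = 0.0437, 0.0495 and 0.012). The span of TYMS overlaps those of ENOSF1 and TYMSOS.

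Among the genes that act on chromatin behind the fork none passed with all libraries, and 4 of 5 were lower without siDUB1 replicate 3. Of all genes, 25.6% were lower and 31.7% higher in that fit. The GC and length correction of all libraries placed CHAF1A and HELLS lower (limma adjusted p = 0.00891 and 0.0344), where 14.9% of all genes were lower and 17.0% higher. UHRF1, which recruits the maintenance DNA methyltransferase to newly copied DNA, stood at 25.1, 20.2 and 22.6 FPKM in the controls and at 13.5, 14.6 and 4.37 FPKM in the siDUB1 libraries. Its mean was 52.2% lower with no overlap, but replicate 3 lay far below the other two and it did not pass (log2 change -1.14, SE 0.41, limma adjusted p = 0.107, and -0.65, adjusted p = 2.64e-05 without that library). The remodeller gene HELLS averaged 10.4 ± 0.497 and 5.17 ± 2.96 FPKM (log2 change -1.03, limma adjusted p = 0.13, and -0.55, adjusted p = 0.000145 without siDUB1 replicate 3). CHAF1A and CHAF1B, subunits of the assembly factor that places histones on new DNA, averaged 21.4 and 20.2 FPKM in siControl and 18.7 and 16.8 FPKM in siDUB1. SLBP, which binds the stem-loop of replication-dependent histone messenger RNAs, stood at 68.5, 64.7 and 71.2 FPKM in the controls and at 60.2, 61.3 and 26.6 FPKM in the siDUB1 libraries. It was slightly below the controls in siDUB1 replicates 1 and 2 and far below them in replicate 3 (log2 change -0.55, limma adjusted p = 0.255, and -0.16, adjusted p = 0.0193 without replicate 3). Of 63 replication-dependent histone genes in the tables, 10 were high enough to test, with H2BC18 higher (0.977 to 2.08 FPKM, limma adjusted p = 0.0339) and none lower, and 4 higher and 1 lower without siDUB1 replicate 3. Most transcripts of this class lack a poly(A) tail and come in near-identical copies, so single values are uncertain.

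Of the 4 genes of fork protection and S-phase control, CLSPN and CDC25A fell and DTL and TIPIN did not pass. With all libraries 5.92% of all genes were lower and 8.13% higher. The same 2 genes were lower without siDUB1 replicate 3, where 25.6% of all genes were lower and 31.7% higher. CLSPN encodes claspin, the adaptor through which the kinase ATR activates CHK1 (NCBI Gene 63967, chromosome 1, 35720213 to 35769978). It stood at 6.59, 6.19 and 6.16 FPKM in the controls and at 3.37, 3.55 and 2.32 FPKM in the siDUB1 libraries, so that every siDUB1 library was far below every control. The mean fell from 6.31 ± 0.24 to 3.08 ± 0.664 FPKM, or by 51.2% (log2 change -0.86, SE 0.15, limma adjusted p = 0.0198). CDC25A, the phosphatase that activates CDK2 at the G1/S transition (NCBI Gene 993, chromosome 3, 48157146 to 48188417), stood at 15.7, 15.5 and 14.1 FPKM in the controls and at 9.78, 10.2 and 6.85 FPKM in the siDUB1 libraries. Its groups did not overlap and its mean fell by 40.9% (log2 change -0.71, SE 0.16, limma adjusted p = 0.0364). DTL, the substrate receptor of the ligase that removes CDT1 in S phase, averaged 10.2 ± 0.491 and 7.94 ± 1.97 FPKM (limma adjusted p = 0.235). TIPIN, of the fork protection complex, stood at 6.14, 6.50 and 6.19 FPKM in the controls and at 6.20, 8.50 and 3.94 FPKM in the siDUB1 libraries, and its groups overlapped.

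The transcripts of E2F1 and E2F2 did not pass in any fit run. E2F1 (NCBI Gene 1869, chromosome 20, 33675477 to 33686385) stood at 19.8, 20.1 and 20.1 FPKM in the controls and at 20.5, 19.97 and 22.2 FPKM in the siDUB1 libraries. The groups overlapped and the means differed by 0.06 on the log2 scale (SE 0.09, limma adjusted p = 0.667). E2F2 was the lowest of the 47 and stood at 2.39, 2.23 and 1.99 FPKM in the controls and at 1.90, 1.99 and 2.01 FPKM in the siDUB1 libraries, which overlapped (log2 change -0.11, SE 0.10, limma adjusted p = 0.461). The words searched stood in the windows of both genes, as shown above for E2F1. Of the E2F genes outside the 47, none of E2F3 to E2F8 passed with all libraries. Without siDUB1 replicate 3, E2F3, E2F6 and E2F7 were lower (limma adjusted p = 2.8e-05, 0.00475 and 2.69e-05) and E2F4, E2F5 and E2F8 did not pass. There 25.6% of all genes were lower and 31.7% higher. With all libraries corrected for GC content and length, E2F3 and E2F7 were lower (limma adjusted p = 0.0249 and 0.01996), beside 14.9% lower and 17.0% higher among all genes.

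**Figure D4:**
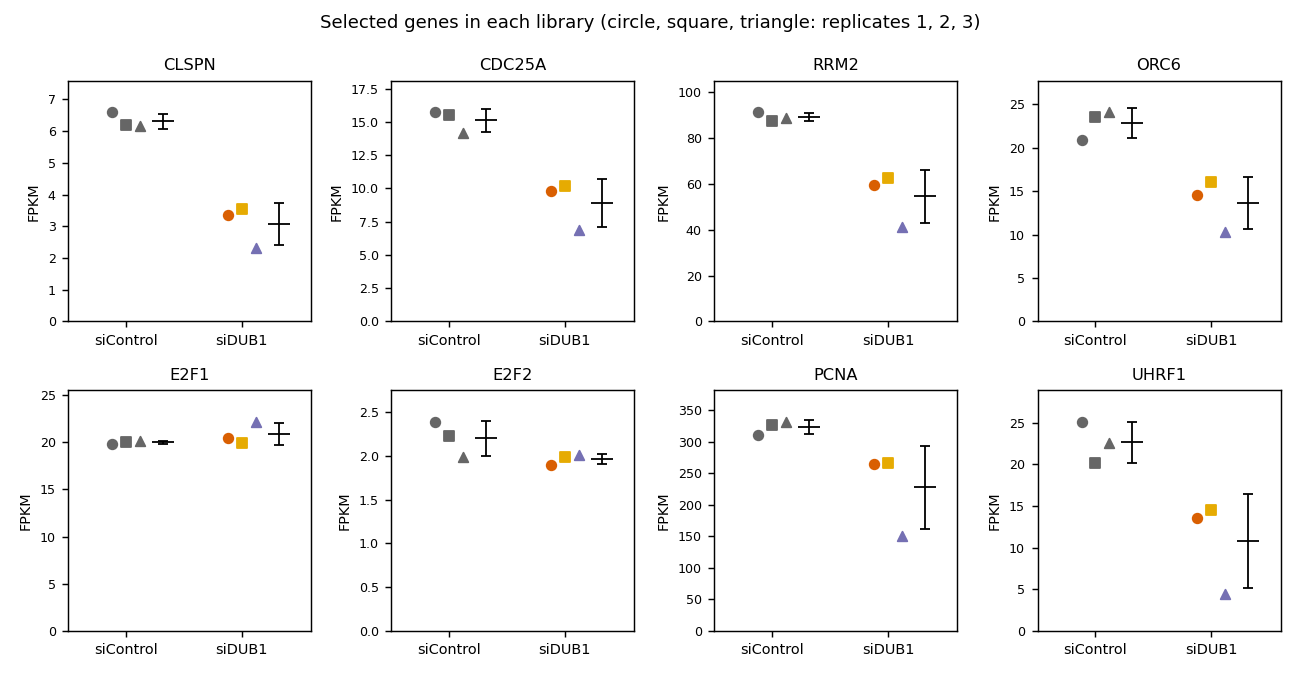
FPKM (y axis) in each library by group (x axis) for 4 genes that fell (CLSPN, CDC25A, RRM2 and ORC6) and for E2F1, E2F2, PCNA and UHRF1, which did not pass, with the mean and SD of 3 libraries. In PCNA and UHRF1 siDUB1 replicate 3 (triangle) lay far below siDUB1 replicates 1 and 2.

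In the controls the 47 genes ranged in level from 2.20 FPKM for E2F2 to 323 FPKM for PCNA, with a median of 21.4 FPKM, against 11.9 FPKM for all genes tested. PCNA was followed by TYMS (166 ± 3.05), MCM7 (89.2 ± 1.87), RRM2 (89.1 ± 1.85), SLBP (68.2 ± 3.27) and RRM1 (50.03 ± 1.22 FPKM). Of these neighbours MCM7 and RRM2 differed by less than their spread. The median coefficient of variation over the 3 controls was 4.79% for the 47 genes and 5.60% for all genes. E2F2, POLA1 and GINS4 were the lowest.

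Genes of the same pathway outside the 47 gave few calls with all libraries, where 5.92% of all genes were lower and 8.13% higher. Of 32 other replication proteins, MCM8, a helicase of recombination repair, fell from 14.8 to 9.42 FPKM (limma adjusted p = 0.0284), the polymerase delta subunit gene POLD4 rose from 32.6 to 54.2 FPKM (limma adjusted p = 0.0421) and 30 did not pass. Of 22 other nucleotide enzymes 2 fell and 2 rose. DCTD and CTPS1, which act on pyrimidine nucleotides, fell, DCTD from 32.8 to 21.0 FPKM and CTPS1 from 51.3 to 35.5 FPKM (limma adjusted p = 0.0111 and 0.0145), while SHMT1 and CAD, of folate metabolism and pyrimidine synthesis, rose, SHMT1 from 17.6 to 25.7 FPKM and CAD from 17.9 to 23.9 FPKM (limma adjusted p = 0.0224 and 0.0446). Of 17 partners of E2F and RB, MYBL1, a MYB transcription factor, fell from 1.93 to 0.397 FPKM (limma adjusted p = 0.00393) and 16 did not pass. Without siDUB1 replicate 3 the other replication proteins had 10 lower and 4 higher, the nucleotide enzymes 8 lower and 5 higher, and the E2F and RB partners 9 lower (52.9%) and 2 higher, where 25.6% of all genes were lower and 31.7% higher. With the GC and length correction MCM8 and CAD did not pass (limma adjusted p = 0.443 and 0.0661), and with size factors POLD4 and CAD did not (limma adjusted p = 0.076 and 0.0843).

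Of 16 tested cyclins, kinases and inhibitors of G1/S, 2 fell and none rose, where 5.92% of all genes were lower and 8.13% higher. CCND1 and CCNE1, of cyclins D1 and E1, which drive E2F release, had log2 changes of -1.15 and -0.46 (limma adjusted p = 0.00399 and 0.0174). Of 12 histone chaperones and methylation factors 1 fell, ASF1A, from 14.6 to 7.95 FPKM (limma adjusted p = 0.0184). Of 7 ligase subunits and substrates KMT5A, the histone H4 methyltransferase that is degraded in S phase, fell from 33.9 to 20.6 FPKM (limma adjusted p = 0.00817). None of the 10 S-phase checkpoint genes passed with all libraries, WEE1 coming nearest (15.7 to 7.61 FPKM, limma adjusted p = 0.0912), followed by HUS1 (adjusted p = 0.143). Without siDUB1 replicate 3, 4 checkpoint genes were lower and 2 higher, and 11 of the 16 cyclins, kinases and inhibitors were lower and none higher. In that fit 4 histone chaperones and methylation factors were lower and 2 higher, and 2 ligase subunits and substrates were lower and 1 higher. Among all genes 25.6% were lower and 31.7% higher there. CCNE1 did not pass with size factors and ASF1A with the GC and length correction (limma adjusted p = 0.0613 and 0.0952).

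Genes of G2 and mitosis were measured in the same libraries. Of 30 tested, 2 rose (6.67%) and none fell, with a median log2 change of -0.03. The background was 8.13% rising and 5.92% falling, with a median of -0.06, so the rising share was not above it. The phosphatase gene CDC25C rose from 7.49 to 11.8 FPKM (limma adjusted p = 0.0417, and 0.0607 with size factors). The securin gene PTTG1 rose from 148 to 192 FPKM (limma adjusted p = 0.0385, and 0.0861 with size factors). Without siDUB1 replicate 3, 13 were higher (43.3%) and 4 were lower (13.3%), with a median of 0.11. The background without that library was 31.7% rising and 25.6% falling, with a median of 0.02. The 47 replication genes had 2 higher, 26 lower and a median of -0.21. Once GC and length were corrected in that fit the medians of the G2/M and replication genes were 0.12 and -0.17. The difference between the lists was not tested.

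**Figure D5:**
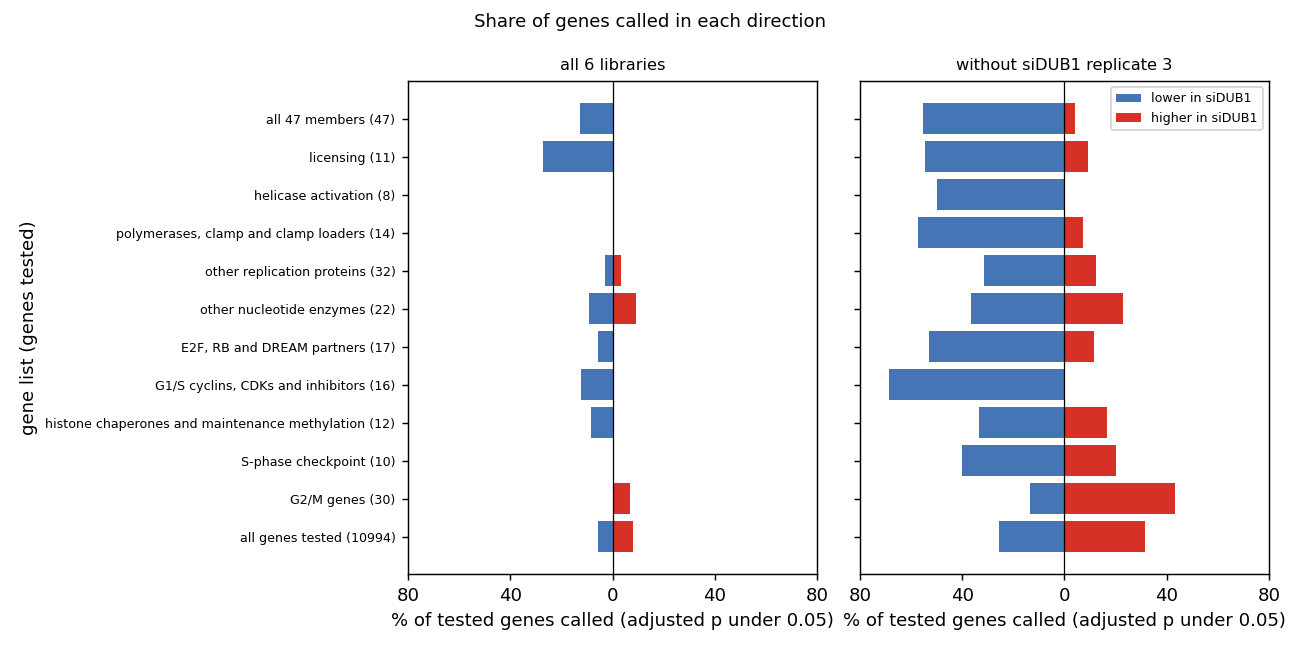
Share of tested genes called lower (blue, to the left) or higher (red, to the right) in siDUB1 (x axis, %) for the 47 genes, 3 of their role groups, related lists and all genes (y axis, with the number tested), with all 6 libraries and without siDUB1 replicate 3. Without it, 55.3% of the 47 genes were lower against 25.6% of all genes, and 43.3% of the G2/M genes were higher against 31.7%.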

How the data were processed

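Total RNA of AGS cells was sequenced on the BGISEQ-500, per the labels' protocols. The deposited tables hold 1 FPKM value per NCBI Gene ID, rounded to 2 decimals, per the file headers, for 18597 genes in each of 6 libraries. Per the submitters' processing notes the genome was GRCh38. The aligner, counter, annotation and use of strand are not given in the sources used here. FPKM carries no depth, so no counting interval is given.

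RefSeq symbols matched 18437 IDs. Genes with at least 1 FPKM in at least 3 libraries (10994, all 47 members among them) were fitted as log2(FPKM + 1), a scale that understates changes of low genes, with limma 3.58.1 in R 4.3.3 (eBayes with trend, two-sided, no covariate), adjusted by Benjamini-Hochberg over all of them. An exact permutation test of 3 against 3 cannot go below 0.1. The fit was checked on simulated data. GC content and length are medians over GENCODE protein-coding transcripts, known for 10908 tested genes, and the correction used natural splines with 4 degrees of freedom each.

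Members and lists were chosen with earlier results of these data known. Values in every library were given by rule for MCM2 to MCM7, PCNA, E2F1, E2F2, CDC6, CDT1, GMNN, RRM1, RRM2, TYMS and SLBP. The rule also covered members past the threshold with all libraries and members called higher without siDUB1 replicate 3. RFC2 had a higher mean without passing and was given by means only. CDC7, DBF4, GINS2, TIPIN and UHRF1 were added after their values were seen. Related lists were named by up to 2 genes in each direction, and E2F3 to E2F8 were added after their values were seen. A marker planned for the check of cell types is not reported here.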

Additional observations from a re-analysis of the deposited data

How the results depend on the processing

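The median log2 change of the 47 genes stayed below 0 under every alternative, from -0.47 to -0.17. The number of them past the threshold, 6, ranged from 0 to 28 when 1 library was left out, and the 1545 calls among all genes ranged from 125 to 6299. With quantile normalization the counts were 14 and 2554, after correction for GC and length 18 and 3481, and with siDUB1 replicate 3 left out as well 31 and 6364. Without a filter on low values 3 of the 47 were called. Robust estimation, pseudocounts of 0.1 and 0.01, a filter of 5 FPKM (45 of the 47 tested), eBayes without trend and size factors moved neither count by over 1.5 times.

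Of the genes that changed sign under an alternative, 4 passed the threshold there. MCM6, at -0.09 with all libraries, stood at 0.18 without siDUB1 replicate 3, at 0.31 once GC and length were corrected and at 0.28 with both. With both, CDT1 stood at -0.15, MCM5 at -0.15 and CDC7 at 0.24. Other changes of sign, such as those of TIPIN, DTL, E2F1 and E2F2, were of values that passed in neither fit. The cause was not tested.

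With the replicate number as a block 0 of the 47 genes and 179 of all genes were called. Same-numbered libraries deviated from their group means with correlations of 0.25, -0.49 and -0.23, and siControl replicate 2 correlated best with siDUB1 replicate 3. Because siDUB1 replicate 3 dominates the deviations of its group, these values cannot show whether the libraries were paired. Depth is unknown, so the precision of low values such as those of E2F2 cannot be stated.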
